A study of Mus musculus with 9 samples.

Results

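The 34 genes described here handle reactive oxygen in the cell: the transcription factor NRF2 and its inhibitor, 14 genes known as NRF2 targets, 14 further antioxidant and glutathione genes, and 4 subunits of the phagocyte NADPH oxidase. They were chosen by gene symbol from the 54532 genes of the expression table, by a rule that uses no measured value but was written with earlier results of these data known, and each symbol matched 1 row. The RNA was that of BV2, a mouse microglial line made immortal with oncogenes, and 3 groups had 3 libraries each. The control cells (Ctrl) were untreated. The OGD or deprived cells underwent oxygen-glucose deprivation, which the study carried out in low-glucose medium with 4% serum at 4% oxygen, while its control medium held 10% serum. The OGD_A_485 cells (OGD + A-485 or A-485-treated in the following) underwent OGD with A-485, an inhibitor of the acetyltransferases P300 and CBP. In the experiments that preceded sequencing, OGD lasted 24 h and A-485 was used at 50 µM, but the sample labels give neither time nor dose, and no group received A-485 without OGD. All libraries share the single BV2 line, and the labels do not say whether the libraries came from separate cultures, so the p-values measure the spread between these libraries, which may be technical.

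NRF2, encoded by Nfe2l2, is kept low by KEAP1, which delivers it to the proteasome. Oxidants and electrophiles modify KEAP1, and NRF2 then binds antioxidant response elements together with small MAF proteins and switches on genes for glutathione synthesis, the thioredoxin system and heme breakdown. The phagocyte NADPH oxidase works in the opposite direction: its membrane subunits, gp91phox and p22phox, and its cytosolic subunits pass electrons from NADPH to oxygen and release superoxide, and microglia use it for killing and signalling.

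Levels are given as FPKM, fragments per kilobase of gene scaled to library size, so that genes of different length can be compared. Between 12593250 and 16091038 reads per library lay on genes, and the 32 members that could be tested were each covered by 136 to 9259 reads in a library. The most abundant member in control cells was Gpx1, glutathione peroxidase of the cytosol, at 277 ± 12.4 FPKM (SD, n = 3 here and for all levels below), followed by Cyba at 205 ± 8.72, Txn1 at 184 ± 12.1 and Prdx1 at 176 ± 10.6. The Txn1 and Prdx1 levels did not differ beyond their spread. Nfe2l2 stood at 33.2 ± 1.42 FPKM and its inhibitor Keap1 at 5.78 ± 0.198 FPKM. At the low end, Gss was at 4.53 ± 0.245 FPKM and Blvrb at 4.19 ± 0.474 FPKM, again within each other's spread. Nqo1, a quinone reductase widely used as an NRF2 readout, was close to undetected, with 18, 8 and 6 reads summed over the 3 libraries of control, OGD and OGD + A-485 cells. Nqo1 and Mgst1 had a mean under 0.2 FPKM and were not tested.

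**Figure D1:**
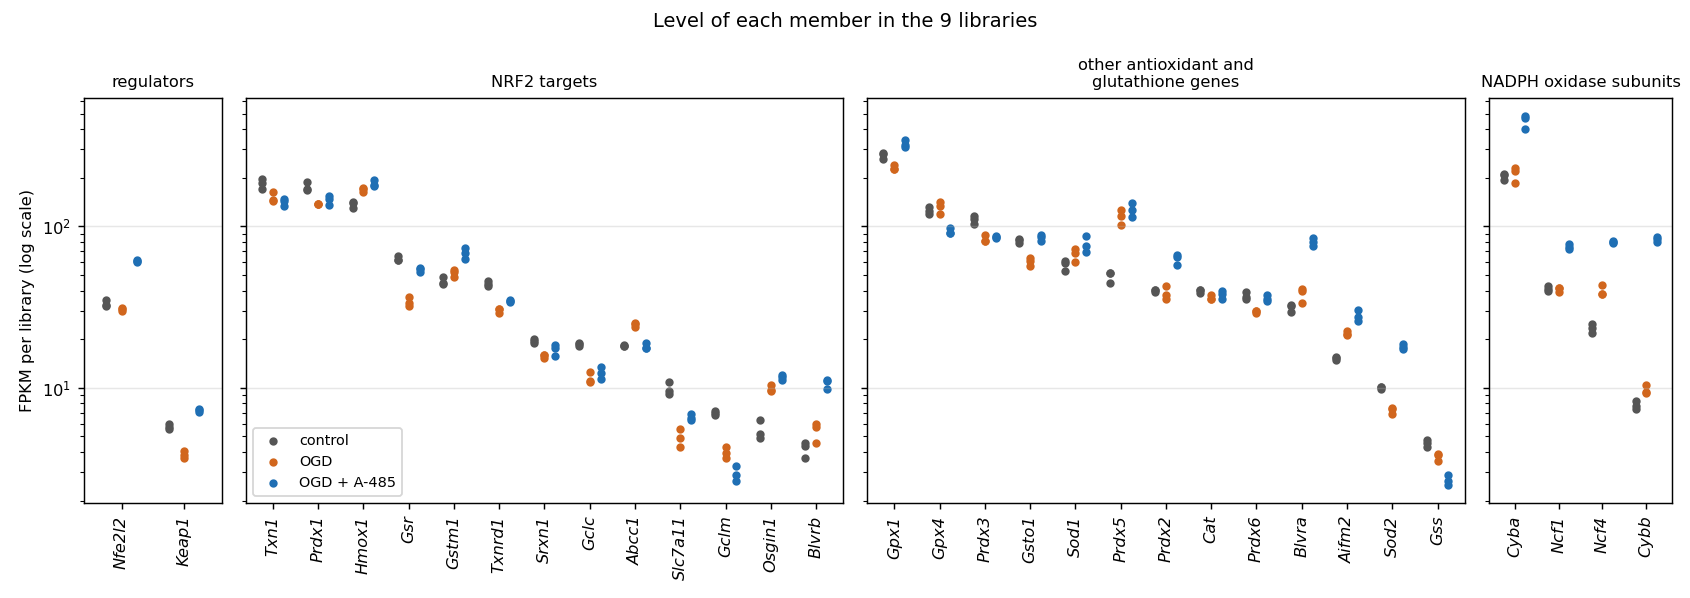
FPKM of the 32 tested members in each of the 9 libraries on a log axis, in 4 panels by role, with grey points for control, orange for OGD and blue for OGD + A-485. The NADPH oxidase subunits stand highest in the blue libraries, with Cybb at a mean of 9.67 FPKM in OGD and 83.5 FPKM with A-485, whereas most NRF2 targets lie lower in the orange libraries than in the grey ones.

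A gene was called when limma gave an unadjusted p below 0.01 together with a log2 fold change beyond 0.5 in either direction. The cut-offs are those of the study, which applied them with DESeq2, so the calls here need not be the same as its own. Fold changes are differences of log2(FPKM + 0.1), and they understate the change of genes at low levels. In OGD against control, 4 of the 32 tested members were called higher and 6 lower, where 11.2% and 9.81% of all 16123 genes tested were called. With a Benjamini-Hochberg adjusted p below 0.05 and no limit on size, 9 members were higher and 16 lower, against 22.5% and 22.8% of all genes. The median log2 fold change was -0.30 over the 13 tested NRF2 targets, of which 1 was called higher and 5 lower, and 0.18 over the 4 oxidase subunits, of which 1 was called higher. It was 0.01 over all genes. The 13 other antioxidant genes had 2 called higher, none lower and a median of -0.13. In OGD + A-485 against OGD, 11 members were called higher and 0 lower by limma, where 12.2% and 13.4% of all genes were called. At an unadjusted limma p below 0.05 alone, 4 members were lower, against 4420 of all 16123 genes. Limma-voom on the recovered reads also called 0 members lower. With library totals set equal, 3 members were called lower, against 2475 of all genes. With the adjusted p, 18 members were higher and 4 lower, against 25.1% and 24.7% of all genes. Both regulators, 2 of 13 NRF2 targets, 3 of 13 other antioxidant genes and 4 of 4 oxidase subunits were called higher in this step. The medians were 0.12 for the NRF2 targets, 0.27 for the other antioxidant genes and 1.04 for the oxidase subunits, against 0.01 for all genes. Because the RNA came from bulk cultures, fewer cells of one state and less RNA per cell cannot be told apart.

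**Figure D2:**
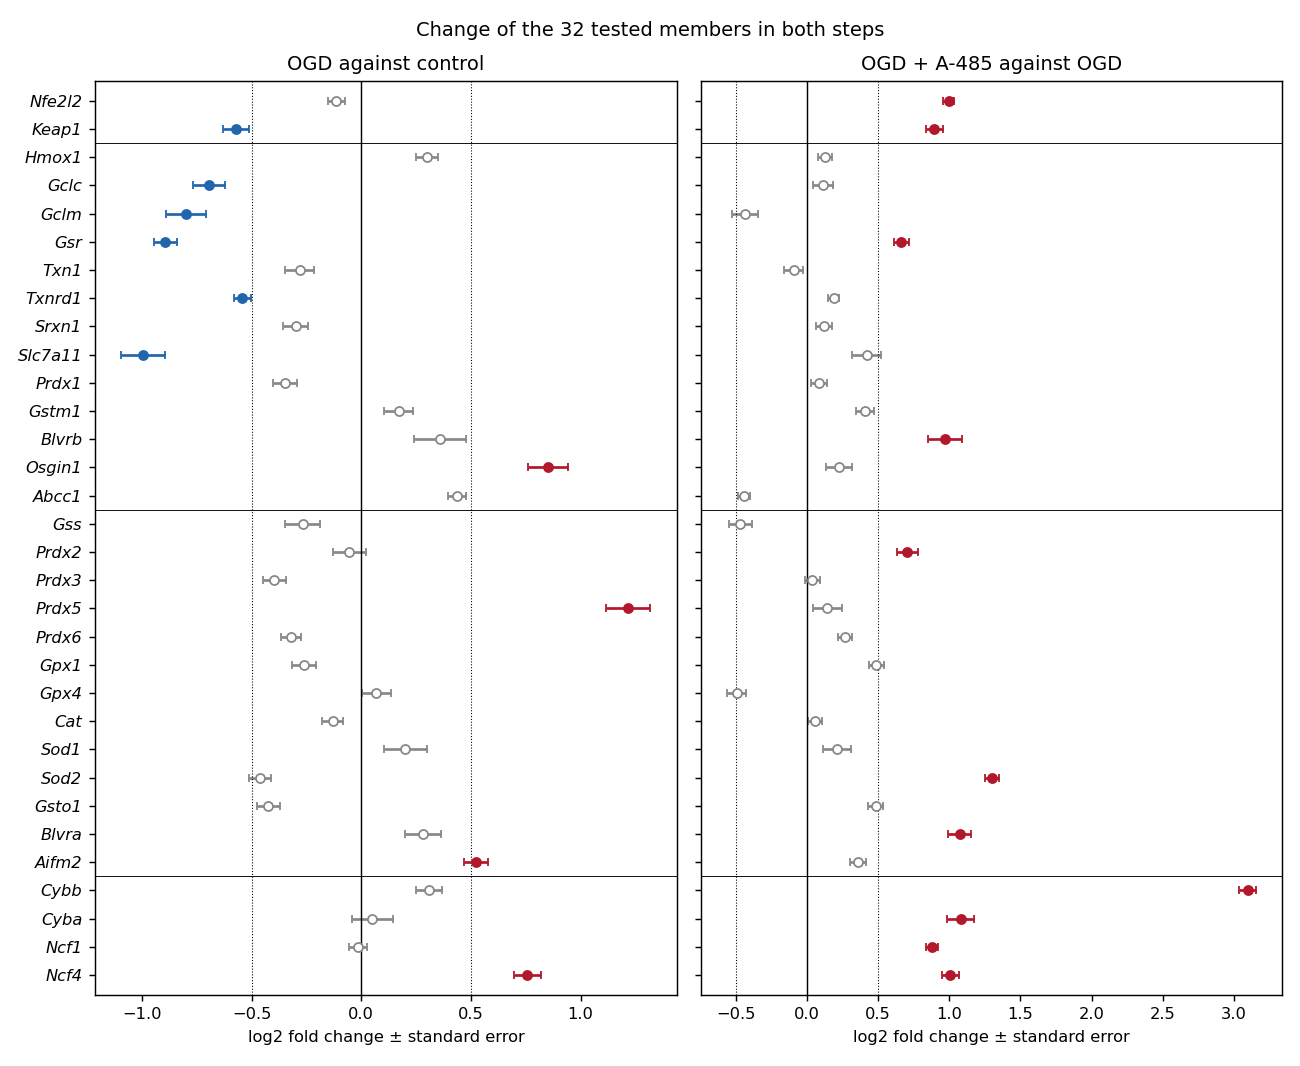
Log2 fold change with its standard error for the 32 tested members, OGD against control on the left and OGD + A-485 against OGD on the right, ordered by role with horizontal lines between roles; filled red points were called higher, filled blue points lower, open points not called, and dotted lines mark 0.5. The called members at left are 6 lower and 4 higher, and those at right are 11 higher, led by Cybb at 3.10.

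Gene positions below are those of the expression table, in GRCm38. Of the regulators, Keap1 fell with OGD and both genes rose with A-485. Nfe2l2 (chr2:75675513-75704641) was at 32.4, 32.3 and 34.8 FPKM in the control libraries, 29.9, 31.4 and 30.7 in the OGD libraries and 60.3, 62.1 and 61.1 in the OGD + A-485 libraries. The A-485 libraries lay far above the other 6, whose groups were close together. The rise with A-485 was 1.99-fold (log2 fold change 0.99 ± 0.04 SE, limma adjusted p = 2.35e-07), and the difference between OGD and control was -0.11 ± 0.04 (adjusted p = 0.0428), too small to be called. Keap1 (chr9:21229730-21239361) was at 5.76, 5.59 and 5.99 FPKM in control, 4.05, 3.70 and 3.83 in deprived and 7.44, 7.07 and 7.27 in A-485-treated libraries, with no overlap between any groups. It fell with OGD (-0.57 ± 0.06, adjusted p = 6.35e-05) and rose with A-485 (0.89 ± 0.06, adjusted p = 3.41e-06). With a pseudocount of 1 the OGD difference of Keap1 was -0.48 and was not called. The ratio of Nfe2l2 to Keap1 FPKM was 5.74 ± 0.0971 in control, 7.95 ± 0.556 in deprived and 8.43 ± 0.339 in A-485-treated cells. The control ratios lay below all others, and the ranges of the other two groups overlapped.

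OGD lowered the transcripts for cystine import, for the first step of glutathione synthesis and for glutathione recycling. Slc7a11 (chr3:49892526-50443614), the cystine transporter that supplies cysteine for glutathione, was at 10.8, 9.10 and 9.62 FPKM in control, 4.92, 5.52 and 4.28 in deprived and 6.30, 6.84 and 6.54 in A-485-treated libraries. It fell to 0.502 times control (-0.99 ± 0.10, adjusted p = 5.81e-05). The A-485 libraries lay between the other groups without overlap, and the difference from OGD of 0.42 ± 0.10 was not called (adjusted p = 0.00694).

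Glutamate-cysteine ligase, the rate-limiting enzyme of glutathione synthesis, has a catalytic subunit (Gclc) and a modifier subunit (Gclm). Gclc (chr9:77754535-77794485) was at 18.9, 18.7 and 18.0 FPKM in control, 11.1, 10.8 and 12.5 in deprived and 13.4, 12.4 and 11.4 in A-485-treated libraries. OGD lowered it to 0.619 times control (-0.69 ± 0.07, adjusted p = 7.8e-05), and the OGD and A-485 libraries overlapped. Gclm (chr3:122245557-122270732) was at 6.79, 6.94 and 7.18 FPKM in control, 3.92, 4.32 and 3.68 in deprived and 2.63, 3.26 and 2.87 in A-485-treated libraries. The 3 groups did not overlap and descended in that order. Gclm fell with OGD (-0.80 ± 0.09, adjusted p = 0.000132), and its further difference with A-485, -0.43 ± 0.09 (adjusted p = 0.00372), missed the size limit. The ratio of Gclm to Gclc FPKM was 0.376 ± 0.0197 in control, 0.350 ± 0.0527 in deprived and 0.237 ± 0.0361 in A-485-treated cells, the last below every library of the other groups.

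Gss, glutathione synthetase of the second step, was at 4.53, 4.77 and 4.28 FPKM in control, 3.53, 3.87 and 3.83 in deprived and 2.88, 2.52 and 2.64 in A-485-treated libraries. The groups again descended without overlap, but neither step was called (-0.27 ± 0.08 with OGD, -0.47 ± 0.08 with A-485). Gsr (chr8:33652523-33698163), the reductase that returns oxidized glutathione to its reduced form, moved down and then up, at 62.1, 62.1 and 65.4 FPKM in control, 36.4, 33.7 and 31.9 in deprived and 52.1, 55.2 and 54.2 in A-485-treated libraries. It fell to 0.538 times control with OGD (-0.89 ± 0.05, adjusted p = 3.38e-06) and rose 1.58-fold with A-485 (0.66 ± 0.05, adjusted p = 1.06e-05). No A-485 library reached the lowest control library.

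**Figure D3:**
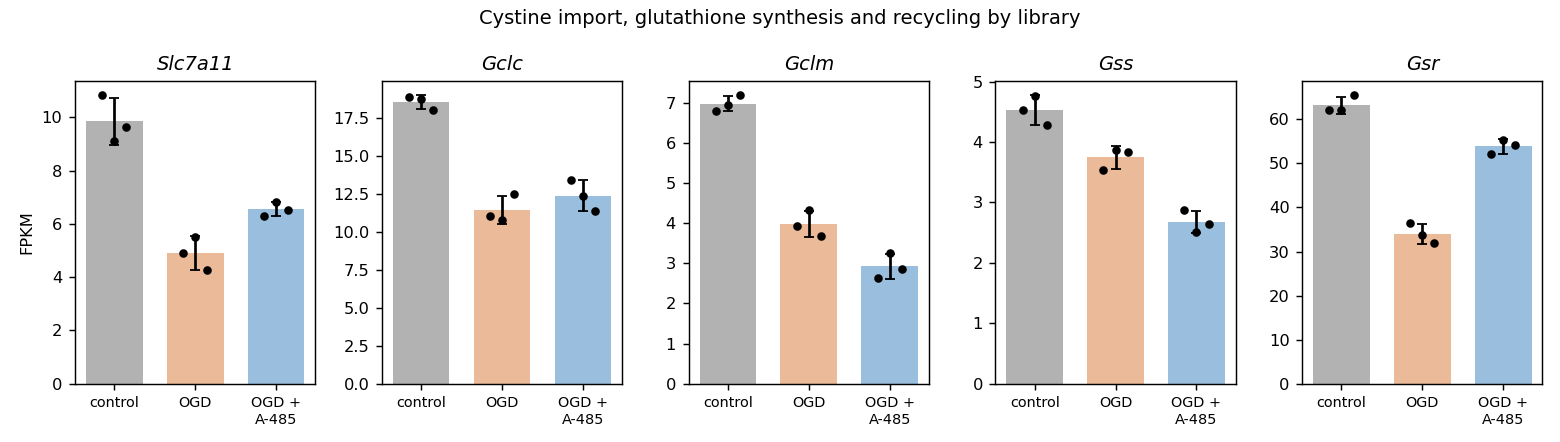
FPKM of Slc7a11, Gclc, Gclm, Gss and Gsr in control, OGD and OGD + A-485 cells; bars are means, error bars are SD and points are the 3 libraries of a group. All 5 genes are lower in OGD than in control libraries, though Gss was not called. The share of all genes with such a separation was not computed. At a limma adjusted p below 0.05, 22.8% of all genes tested were lower in OGD. With A-485 Gsr stands higher than in OGD, while Gclm and Gss stand lower without being called.

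In the thioredoxin system, Txnrd1 (chr10:82833951-82897712), the reductase that keeps thioredoxin active, was at 42.4, 44.2 and 45.6 FPKM in control, 30.6, 29.2 and 30.9 in deprived and 34.4, 33.8 and 35.0 in A-485-treated libraries. It fell with OGD (-0.54 ± 0.04, adjusted p = 9.36e-06) and stood 0.19 ± 0.04 above OGD with A-485, which was not called. The groups did not overlap. Txn1, thioredoxin itself, Prdx1, a peroxidase that uses it, and Srxn1, the sulfiredoxin that repairs over-oxidized peroxiredoxins, differed between OGD and control by -0.28, -0.35 and -0.30. All 3 had an adjusted p below 0.05 and none was called. Their differences with A-485 were -0.09, 0.08 and 0.12, with adjusted p between 0.122 and 0.286.

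The promoters of 4 of these NRF2 targets held the core of the antioxidant response element, TGACNNNGC on either strand, between 250 bases before and 50 bases after a RefSeq transcription start. They are shown because their transcripts were lower in OGD than in control libraries, with the match in capitals (5′ to 3′ on the strand of the gene, RefSeq, GRCm38.p6).
Gclm, chr3:122245307-122245606, plus strand: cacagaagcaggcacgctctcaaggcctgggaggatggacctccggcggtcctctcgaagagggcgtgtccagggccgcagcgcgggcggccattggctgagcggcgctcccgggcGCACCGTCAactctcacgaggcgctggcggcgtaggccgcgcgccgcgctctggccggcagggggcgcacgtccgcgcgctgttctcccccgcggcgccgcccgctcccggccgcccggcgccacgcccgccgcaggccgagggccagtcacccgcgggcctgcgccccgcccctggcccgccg
Prdx1, chr4:116685349-116685648, plus strand: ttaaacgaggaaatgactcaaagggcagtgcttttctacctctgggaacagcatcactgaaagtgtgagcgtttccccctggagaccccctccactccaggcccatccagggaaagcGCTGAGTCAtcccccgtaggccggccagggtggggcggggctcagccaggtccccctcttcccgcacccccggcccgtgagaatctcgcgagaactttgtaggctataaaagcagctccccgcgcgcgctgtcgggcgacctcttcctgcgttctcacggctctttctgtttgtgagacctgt
Srxn1, chr2:152105274-152105573, plus strand: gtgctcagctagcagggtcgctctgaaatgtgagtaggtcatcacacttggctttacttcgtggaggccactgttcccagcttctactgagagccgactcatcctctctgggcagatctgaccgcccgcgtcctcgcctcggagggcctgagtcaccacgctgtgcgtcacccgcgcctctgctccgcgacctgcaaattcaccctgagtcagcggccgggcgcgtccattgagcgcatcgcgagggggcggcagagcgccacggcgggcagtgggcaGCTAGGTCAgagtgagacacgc
Txnrd1, chr10:82858956-82859255, plus strand: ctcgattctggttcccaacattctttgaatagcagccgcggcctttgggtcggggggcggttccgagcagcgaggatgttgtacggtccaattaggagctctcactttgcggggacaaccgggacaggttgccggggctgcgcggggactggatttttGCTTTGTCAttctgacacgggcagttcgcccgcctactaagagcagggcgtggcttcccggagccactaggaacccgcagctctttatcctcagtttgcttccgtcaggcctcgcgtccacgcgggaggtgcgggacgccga
All 4 matches lie on the opposite strand to the gene. The match began 134 bases before the start in Gclm, 133 in Prdx1 and 92 in this promoter of Txnrd1, which has 3 RefSeq starts, and 28 bases after the start in Srxn1. In Prdx1 the match contains TGAGTCA, a form of the AP-1 motif TGANTCA, so both motifs share those bases. Promoters were at hand for 28 members, 36 promoters in all; those of Abcc1, Gclc, Gsr, Hmox1, Ncf4 and Prdx6 were not analysed here. The core was in 8 of the 36 (22.2%), against 12.4% of all 32851 promoters of the same length, and in 4 of 14 promoters of NRF2 targets (28.6%). The other promoters with it belonged to Nfe2l2, Blvra, Mgst1 and Sod1. The hypoxia response element core, ACGTG on either strand, was in 5 of 36 (13.9%), those of Keap1, Gclm, Gstm1, Blvrb and Gpx1, against 19.6% of all. A match is only a run of letters, and binding was not measured.

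Among the remaining NRF2 targets, Osgin1 was called higher with OGD and Blvrb with A-485, where 11.2% and 12.2% of all genes were called higher. Osgin1 (chr8:119434124-119446256), an oxidative stress-induced growth inhibitor, was at 5.18, 4.91 and 6.33 FPKM in control, 9.75, 9.51 and 10.4 in deprived and 11.1, 11.6 and 11.98 in A-485-treated libraries. The groups did not overlap. It rose 1.80-fold with OGD (0.85 ± 0.09, adjusted p = 8.41e-05), and it was the NRF2 target called higher in that step. A-485 added a difference of 0.23 ± 0.09 that was not called. Hmox1, heme oxygenase that opens the heme ring, was at 137 ± 5.98 FPKM in control, 169 ± 5.57 in deprived and 184 ± 8.02 in A-485-treated cells. The difference with OGD (0.30 ± 0.05, adjusted p = 0.000998) was too small to be called, and with A-485 it was 0.12 ± 0.05 (adjusted p = 0.0636).

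Both biliverdin reductases, which act on the product of heme oxygenase, rose with A-485. Blvrb (chr7:27447978-27466144) was at 3.66, 4.57 and 4.35 FPKM in control, 5.99, 4.53 and 5.75 in deprived and 11.2, 9.90 and 10.9 in A-485-treated libraries. The control and OGD libraries overlapped, and the A-485 libraries stood apart (1.96-fold over OGD, 0.97 ± 0.12, adjusted p = 0.000162). Blvra (chr2:127070665-127097084) was at 29.3, 32.7 and 32.04 FPKM in control, 41.1, 33.7 and 39.99 in deprived and 80.2, 76.2 and 85.2 in A-485-treated libraries, with no overlap. It rose 2.11-fold over OGD (1.07 ± 0.08, adjusted p = 8.21e-06). Abcc1, an exporter of glutathione conjugates, was at 18.2 ± 0.174 FPKM in control, 24.7 ± 0.785 in deprived and 18.1 ± 0.751 in A-485-treated cells. It stood 0.44 ± 0.04 above control in OGD and -0.45 ± 0.04 against OGD with A-485. Both had an adjusted p below 0.05 and neither was called. Gstm1, a glutathione transferase, was at 45.8 ± 2.30 FPKM in control, 51.5 ± 2.48 in deprived and 68.4 ± 5.44 in A-485-treated cells and was called in neither step. The mu class holds near-identical genes among which the counting may have split reads, so the Gstm1 values are uncertain.

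Of the peroxiredoxins, which reduce peroxides, Prdx5 was called higher with OGD and Prdx2 with A-485. Prdx5 (chr19:6906697-6910106) was at 51.6, 51.4 and 44.6 FPKM in control, 126, 102 and 116 in deprived and 127, 114 and 139 in A-485-treated libraries. Its rise with OGD, 2.33-fold (1.22 ± 0.10, adjusted p = 2.05e-05), was the largest among the 32 members in that step, and the OGD and A-485 libraries overlapped. Prdx2 (chr8:84969587-84974834) was at 40.3, 40.5 and 39.2 FPKM in control, 42.8, 35.6 and 37.4 in deprived and 64.8, 57.6 and 66.5 in A-485-treated libraries. Control and OGD overlapped, and it rose 1.63-fold with A-485 (0.71 ± 0.07, adjusted p = 6.33e-05). The mitochondrial Prdx3 differed by -0.40 with OGD (limma adjusted p = 0.000305) and by 0.04 with A-485 (adjusted p = 0.609). Prdx6 differed by -0.32 (adjusted p = 0.00053) and 0.27 (adjusted p = 0.00131) in these steps. None of these differences reached the size limit, so none was called.

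Prdx2 overlaps Junb and Rnaseh2a on the opposite strand, Prdx5 overlaps Trmt112 and Sod1 overlaps Scaf4. Whether counting used strand was not given in the sources used here, so reads from the shared stretches cannot be told apart. Junb changed by 1.15 on the log2 scale in OGD and by -0.60 after A-485, and the differences were -0.40 and 0.01 for Rnaseh2a, -0.04 and -0.06 for Trmt112 and -0.49 and 0.30 for Scaf4. Sod1 itself differed by 0.20 and 0.21. How far shared reads enter the values of these members was not tested.

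The mitochondrial superoxide dismutase Sod2 (chr17:13006846-13040063) was at 9.87, 10.2 and 10.1 FPKM in control, 7.50, 6.89 and 7.39 in deprived and 17.9, 17.5 and 18.7 in A-485-treated libraries, with no overlap between groups. Its difference with OGD (-0.46 ± 0.05, adjusted p = 7.54e-05) fell short of the size limit, and it rose 2.46-fold with A-485 (1.30 ± 0.05, adjusted p = 1.68e-07). The cytosolic Sod1 was at 57.9 ± 4.25, 66.7 ± 6.07 and 77.4 ± 9.42 FPKM in the same order and was called in neither step. The ratio of Sod2 to Sod1 FPKM was 0.174 ± 0.0109 in control, 0.109 ± 0.00526 in deprived and 0.235 ± 0.0222 in A-485-treated cells, without overlap.

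The glutathione peroxidases had differences of opposite sign with A-485, and neither was called. Gpx1 was at 277 ± 12.4 FPKM in control, 232 ± 7.76 in deprived and 325 ± 18.0 in A-485-treated cells (0.49 ± 0.05 over OGD, adjusted p = 8.99e-05). Gpx4, which removes lipid peroxides from membranes, was at 125 ± 5.63, 132 ± 10.9 and 93.1 ± 4.31 FPKM (-0.50 ± 0.07 against OGD, adjusted p = 0.000255). The Gpx4 value is uncertain, since a row annotated as its pseudogene, Gpx4-ps2, stood at 46.9 ± 2.80, 48.4 ± 2.55 and 33.4 ± 2.23 FPKM in the 3 groups, with a log2 fold change of -0.53 with A-485. Aifm2 (chr10:61715263-61739260), also called FSP1, protects against lipid peroxidation without glutathione. It was at 15.2, 15.4 and 14.8 FPKM in control, 21.7, 21.2 and 22.5 in deprived and 30.2, 26.1 and 27.6 in A-485-treated libraries, and the 3 groups did not overlap. The rise with OGD (0.52 ± 0.06, adjusted p = 8.32e-05) lay just past the size limit. It was 0.498 without OGD replicate 3 and 0.47 with equal library totals, and was not called in either case. The difference with A-485 (0.36 ± 0.06) was not called.

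Catalase (Cat) stayed between 36.2 and 39.7 FPKM in the group means and was called in no comparison. Gsto1, an omega-class glutathione transferase, was at 81.4 ± 2.57, 60.7 ± 3.42 and 84.8 ± 3.75 FPKM, with differences of -0.42 ± 0.05 with OGD and 0.48 ± 0.05 with A-485 that were not called. Mgst1, a membrane-bound glutathione transferase, had 1 read in all 3 control libraries and 0 in all 3 OGD libraries, but 45 reads in the OGD + A-485 libraries, at 0.476, 0.535 and 0.482 FPKM. Against a floor of 3 reads over the OGD group this was at least 13.3-fold higher. The floor covers counting error only.

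All 4 NADPH oxidase subunits rose with A-485. Cybb (chrX:9435252-9487771) encodes gp91phox, the subunit that carries the electrons across the membrane. It was at 7.71, 8.28 and 7.36 FPKM in control, 9.36, 10.3 and 9.30 in deprived and 84.0, 85.8 and 80.6 in A-485-treated libraries. The groups did not overlap, and the step with A-485 was 8.56-fold (3.10 ± 0.06, adjusted p = 5.94e-09), the largest of the 32 members. The difference with OGD was 0.31 ± 0.06 (adjusted p = 0.00237) and was not called. Cyba (chr8:122424776-122432930), the p22phox partner that stabilizes gp91phox, was at 208, 212 and 195 FPKM in control, 230.5, 187 and 221 in deprived and 468, 401 and 481 in A-485-treated libraries. Control and OGD overlapped, and Cyba rose 2.11-fold with A-485 (1.08 ± 0.09, adjusted p = 1.9e-05). The ratio of Cybb to Cyba FPKM was 0.0379 ± 0.00101 in control, 0.0460 ± 0.00813 in deprived and 0.187 ± 0.0242 in A-485-treated cells.

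Of the cytosolic subunits, Ncf1 (p47phox, the organizer, chr5:134220053-134229625) was at 40.01, 41.2 and 42.5 FPKM in control, 41.6, 39.1 and 41.6 in deprived and 77.5, 72.9 and 74.3 in A-485-treated libraries. It rose 1.83-fold with A-485 (0.88 ± 0.04, adjusted p = 6.5e-07), while control and OGD overlapped. Ncf4 (p40phox, chr15:78244801-78262580) was at 21.9, 23.6 and 24.98 FPKM in control, 38.1, 38.2 and 43.1 in deprived and 81.2, 78.6 and 80.0 in A-485-treated libraries. It was the member called higher in both steps, 1.69-fold with OGD (0.76 ± 0.06, adjusted p = 1.85e-05) and 2.01-fold with A-485 (1.01 ± 0.06, adjusted p = 2.49e-06), and its groups did not overlap.

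**Figure D4:**
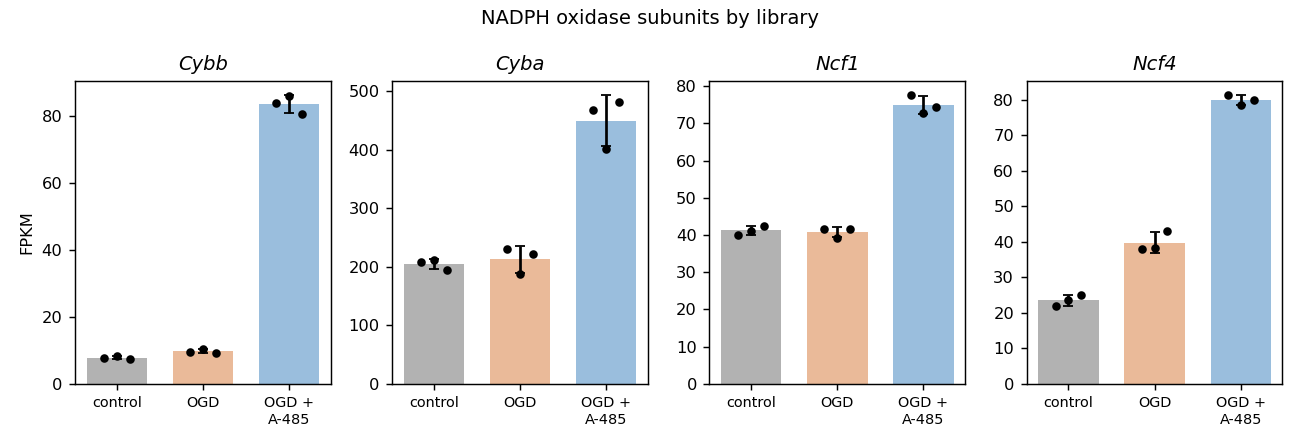
FPKM of the oxidase subunits Cybb, Cyba, Ncf1 and Ncf4 in control, OGD and OGD + A-485 cells; bars are means, error bars are SD and points are the 3 libraries of a group. In all 4 panels the OGD + A-485 libraries stand above every other library. The share of all genes with such a separation was not computed. At a limma adjusted p below 0.05, 25.1% of all genes tested were higher with A-485 than in OGD, and 28.2% than in control. The fold difference is largest for Cybb, at a mean of 9.67 FPKM in OGD and 83.5 FPKM with A-485.

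The Cybb promoter is shown because Cybb changed most. Capitals mark TGANTCA, the AP-1 motif, and TTCCTC, the reverse complement of the core GAGGAA bound by the myeloid factor PU.1 (5′ to 3′ on the strand of the gene, RefSeq, GRCm38.p6).
Cybb, chrX:9469275-9469574, minus strand: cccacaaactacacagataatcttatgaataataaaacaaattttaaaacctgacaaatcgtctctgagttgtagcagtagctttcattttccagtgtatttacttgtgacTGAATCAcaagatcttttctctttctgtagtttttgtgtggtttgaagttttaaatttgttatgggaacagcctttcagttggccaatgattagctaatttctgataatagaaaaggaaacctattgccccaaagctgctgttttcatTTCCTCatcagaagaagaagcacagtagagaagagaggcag
The AP-1 match began 139 bases before this RefSeq start and the PU.1 core 9 bases after it. On the minus strand the Cybb row of the expression table begins at 9487771, so this promoter lies inside the gene interval and not at its 5′ end. AP-1 matches were in 7.81% of all promoters and in 4 of the 36 member promoters (11.1%), those of Cybb, Osgin1, Prdx1 and Srxn1. The PU.1 core, a motif chosen after the values were seen, was in 28.3% of all promoters and in 9 of 36 (25%). Besides Cybb, these were promoters of Cat, Gsto1, Mgst1, Osgin1, Prdx1, Slc7a11, Sod2 and Txnrd1. Promoters of 3 oxidase subunits were at hand, and none held the antioxidant response element core. Those of Cyba and Ncf1 also held neither the AP-1 motif nor the PU.1 core.

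Most genes that mark microglia and macrophages rose with A-485, as the oxidase subunits did. Of 13 such markers, 12 had a mean of at least 1 FPKM, and the summed level of all 13 was 500 to 519 FPKM over the control, 598 to 630 over the deprived and 1213 to 1233 over the A-485-treated libraries. Of 12 tested, 5 were called higher in OGD against control, and 10 in OGD + A-485 against OGD with a median log2 fold change of 1.20, where 11.2% and 12.2% of all genes were called higher. Spi1, which encodes PU.1, was at 43.9 ± 0.852, 38.5 ± 3.30 and 97.9 ± 6.40 FPKM in the 3 groups. The microglial marker Tmem119 was at 1.33 to 1.40 FPKM in the group means, and P2ry12 was at or below 0.244. Summed levels of neuronal, astrocyte, and endothelial and fibroblast markers stayed at or below 0.768, 0.155 and 0.818 FPKM, and oligodendrocyte markers reached 10.6 to 14.5 FPKM, mostly from Cnp. The part of the marker genes in the oxidase result was not tested.

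OGD + A-485 cells were also set against control cells, a comparison that shares its libraries with both others. Here 13 members were called higher and 4 lower, where 17.0% and 16.6% of all genes were called. With the adjusted p, 17 were higher and 11 lower, against 28.2% and 28.4% of all genes. The 4 lower members make glutathione or supply its cysteine: Gclm (-1.23 ± 0.09, adjusted p = 4.65e-06), Gss (-0.74 ± 0.08, adjusted p = 5.2e-05), Gclc (-0.58 ± 0.07, adjusted p = 0.000128) and Slc7a11 (-0.58 ± 0.10, adjusted p = 0.000932). The higher members were the 4 oxidase subunits, from 1.81-fold for Ncf1 to 10.6-fold for Cybb, and Nfe2l2, Gstm1, Blvrb, Osgin1, Prdx2, Prdx5, Sod2, Blvra and Aifm2. Gstm1 (0.58 ± 0.07) was not called with quantile normalization (0.43) or with equal library totals (0.46). The median log2 fold change was -0.23 over the NRF2 targets, 0.23 over the other antioxidant genes and 1.45 over the oxidase subunits, against 0.02 over all genes.

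A wider set of 84 genes of the same pathways, of which 63 could be tested, had 14 called higher and 8 lower with OGD and 19 higher and 6 lower with A-485. Of all genes tested, 11.2% were called higher and 9.81% lower with OGD, and 12.2% and 13.4% with A-485, so the lower counts were near or below the share of all genes. The median log2 fold change was 0.10 and 0.24 in these steps, against 0.01 and 0.01 for all genes. The list was written with earlier results known. The genes below are the most changed called genes of each group, among those with a mean of at least 1 FPKM. Among 9 partners of NRF2 and KEAP1, 2 were called higher with OGD and 1 with A-485 (medians 0.15 and 0.26), where 11.2% and 12.2% of all genes were called higher. Sqstm1, encoding p62, which binds KEAP1, was at 95.4 ± 3.14, 141 ± 3.49 and 192 ± 7.01 FPKM in the 3 groups (log2 fold change 0.56 with OGD), and the small MAF gene Maff rose by 0.73 with OGD. Bach1, a repressor at antioxidant response elements, rose by 0.75 with A-485, from 12.1 ± 0.328 to 20.3 ± 0.529 FPKM. No partner was called lower in either step.

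The 19 tested NRF2-linked genes for NADPH supply and detoxification had 4 called higher and 5 lower with OGD, where 11.2% and 9.81% of all genes were called, and 7 higher and 3 lower with A-485, where 12.2% and 13.4% were (medians -0.00071 and 0.39). Me1, the malic enzyme that makes NADPH in the cytosol, stood at 62.2 ± 0.528 FPKM in control and 85.4 ± 2.13 in OGD cells and dropped to 3.98 ± 0.339 with A-485 (-4.39 ± 0.06, adjusted p = 1.17e-09). Idh1, another source of cytosolic NADPH, went from 10.5 ± 0.186 FPKM in OGD to 24.996 ± 1.28 with A-485 (1.25 ± 0.05). Taldo1, transaldolase of the pentose phosphate pathway, fell from 71.6 ± 3.89 FPKM in control to 41.7 ± 2.20 with OGD (-0.78 ± 0.05), and the aldose reductase gene Akr1b3 fell from 36.9 ± 1.61 to 14.6 ± 0.730 (-1.33 ± 0.06). The epoxide hydrolase Ephx1 rose from 5.43 ± 0.225 to 15.8 ± 0.574 FPKM with OGD (1.52 ± 0.05). Gstm2 went from 0.367 ± 0.221 FPKM in OGD to 7.40 ± 0.509 with A-485, with the same uncertainty as Gstm1. Ugdh, which makes UDP-glucuronate, fell with A-485 (-0.96 ± 0.08), and the transferase gene Mgst2 was 1.38 ± 0.05 above control in the A-485-treated cells.

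The glutathione cycle list had 3 of 14 tested genes called higher and 2 lower with OGD, and 2 higher and 3 lower with A-485 (medians 0.02 and -0.08). Of all genes, 11.2% were called higher and 9.81% lower with OGD, and 12.2% and 13.4% with A-485. Whether so few genes differ from all genes in this was not tested. The glutaredoxin gene Glrx rose from 6.94 ± 0.582 to 12.99 ± 0.194 FPKM with OGD and fell to 7.27 ± 0.612 with A-485. Slc3a2, the heavy chain that pairs with the Slc7a11 product, was at 54.0 ± 2.33, 53.0 ± 2.03 and 77.3 ± 4.97 FPKM and was called higher with A-485 (0.54 ± 0.06). Gstt3, a theta-class transferase, rose with OGD (0.76 ± 0.10) and fell with A-485 (-1.65 ± 0.10), while Ggct (-0.66 ± 0.16) and the mitochondrial glutaredoxin gene Glrx5 (-0.59 ± 0.10) fell with OGD. Of 13 tested thioredoxin, peroxidase and repair genes, 3 were called higher and 1 lower with OGD, and 6 higher and 0 lower with A-485 by limma, with 1 lower at an unadjusted p below 0.05 (medians 0.10 and 0.43). The shares of all genes called were 11.2% and 9.81% with OGD, and 12.2% and 13.4% with A-485. At an unadjusted limma p below 0.05, 4420 of all 16123 genes were lower with A-485. Txnip, the inhibitor of thioredoxin, was at 65.5 ± 1.15, 130.5 ± 3.01 and 192 ± 5.94 FPKM (log2 fold change 0.99 ± 0.04 with OGD). Msrb1, a methionine sulfoxide reductase, went from 31.1 ± 1.98 FPKM in OGD to 93.9 ± 4.44 with A-485 (1.59 ± 0.06), and Msra, of the same function, rose by 1.44 ± 0.13. The sestrin gene Sesn2 rose with OGD (1.13 ± 0.09) and Msrb2 fell (-0.57 ± 0.10). Among 8 tested oxidase partners and other oxidases, 2 were called higher with OGD and 3 with A-485, none lower (medians 0.31 and 0.26), where 11.2% and 12.2% of all genes were called higher. The GTPase gene Rac2 was at 103 ± 3.55, 149 ± 6.13 and 185 ± 8.13 FPKM (0.53 ± 0.05 with OGD), and Hvcn1, a proton channel that balances the charge of the oxidase, rose by 0.90 ± 0.09 with A-485.

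To set each tested member beside its surroundings in the genome, the median log2 fold change of up to 50 flanking expressed genes was computed. The same number was taken from each side on its chromosome where available, and Prdx3 had 29 in all. With A-485 against OGD these medians ranged from -0.41 to 0.42, and 9 of 32 were beyond 0.2 in size. The share over all genes is not given here, so whether such medians are usual cannot be told. For Slc7a11 on chromosome 3 the median was 0.42, as large as its own 0.42, and the remainder was -0.01. For Gclc on chromosome 9 it was -0.36 against OGD and -0.47 against control, and without it Gclc differed from control by -0.11 and was not called. Me1, also on chromosome 9, had neighbours at -0.27. With their neighbours' median removed, Gsto1 (0.89) and Gpx1 (0.76) were called higher with A-485 and Gpx4 (-0.58) lower. Calls after this removal used the standard error of the member alone, without that of the neighbours' median. The medians beside the oxidase subunits were between -0.06 and 0.14, and all 4 remained called, from 0.80 for Ncf1 to 3.16 for Cybb. The part of the neighbours' shift in these values was not tested.

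**Figure D5:**
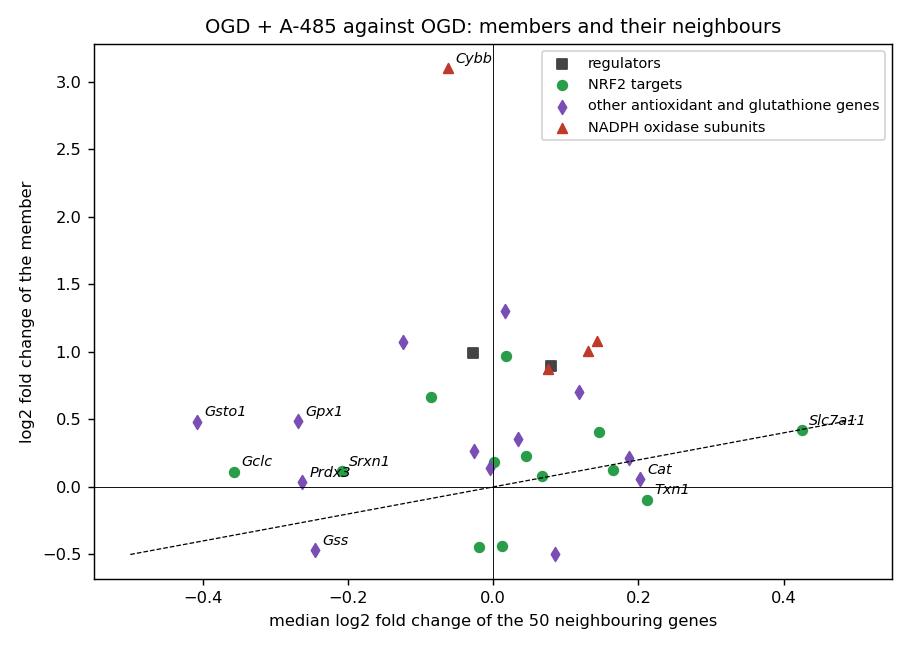
Log2 fold change of each tested member in OGD + A-485 against OGD (vertical axis) against the median log2 fold change of its up to 50 neighbouring genes (horizontal axis), with a dashed line where both are equal and symbols by role. Slc7a11 lies on the line at 0.42, Gsto1 and Gpx1 lie above neighbours that are lower, and Cybb stands at 3.10 beside neighbours near 0.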

How the data were processed

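The authors removed reads with adapters, undetermined bases or low quality, counted reads per gene with featureCounts, computed FPKM from gene length and read count and deposited that table, on GRCm38/mm10 per the submitters' processing notes. The aligner and the strand setting were not given in the sources used here. From the deposited FPKM, gene length and 1 divisor per library, whole reads were recovered for 100% of values (tolerance 0.05 reads). Of the genes with a GENCODE ID, 98.3% had the coordinates of the GRCm38 annotation, and so had all 34 members.

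Here 16123 genes passed a minimum mean of 0.2 FPKM, and their log2(FPKM + 0.1) entered a limma 3.58.1 fit (R 4.3.3, a mean per group, all 9 libraries, trended prior variance), and p-values were adjusted over all genes by Benjamini-Hochberg. The fit was tested on simulated data. The members and gene lists were chosen with earlier results of these data known. The text names every member and, in each comparison, the most changed called genes of each wider list. One gene of the wider lists is not reported here. Promoter motifs were searched in RefSeq sequences with Python 3.11.15. Libraries within a group were further apart than sampling noise allows. No per-sample column was left unused.

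Alternatives were pseudocounts of 1 and 0.01, minimum means of 1 FPKM and none, quantile normalization, equal library totals, fits without the group that was not compared, replicate numbers taken as a block, no variance trend, limma-voom on recovered reads, the adjusted p as call rule, removal of the neighbours' median, and each library left out. A floor of 3 reads for a member at 0 reads in a group was added after seeing the data.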

Additional observations from a re-analysis of the deposited data

How the results depend on the processing

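Counts of members called higher were within 1.5 times of the values given in every alternative that kept the call rule, as were the counts called lower in OGD against control. With the adjusted p as the rule, 9 members were higher and 16 lower in OGD against control, 18 higher and 4 lower in OGD + A-485 against OGD, and 11 lower in OGD + A-485 against control. In the same order, the shares of all genes were 22.5% and 22.8%, 25.1% and 24.7%, and 28.4%. The 0 members called lower with A-485 became 2 with quantile normalization, 3 with equal library totals and 1 with the neighbours' median removed. Of all genes, 2177, 2475 and 2066 were called lower under these settings, against 2165 in the main fit. With 1 library left out, 0 to 1 members were called lower. Where it was 1, between 2011 and 2118 of all genes were called lower. The members concerned were Abcc1, Gss, Gclm and Gpx4. Lower calls in OGD + A-485 against control rose from 4 to 8 with quantile normalization, while those of all genes rose from 2684 to 2928. Equal library totals moved the median of all genes in that comparison from 0.02 to -0.09.

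The NRF2 target median for OGD against control was -0.48 with quantile normalization, -0.35 with equal totals and -0.24 with neighbours removed. For OGD + A-485 against OGD it was 0.059 with equal totals, 0.18 with neighbours removed and 0.12 to 0.18 with 1 library left out, and against control it was -0.37, -0.35 and -0.11 under the first 3 settings. The oxidase median with A-485 against OGD was 0.87 with quantile normalization, 0.98 with equal totals, 0.91 with neighbours removed and 0.98 to 1.09 with 1 library left out, and against control it was 1.19, 1.33 and 1.37. No median of these lists changed sign in any alternative.

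Some log2 fold changes changed sign, all in members not called in the comparison concerned. Not all of these were near 0 in the main fit. Slc7a11 stood at 0.42 in OGD + A-485 against OGD, and Prdx3 at -0.36 and Gpx1 at 0.23 in OGD + A-485 against control. In OGD against control, removing the neighbours' median gave -0.059 for Gstm1, 0.079 for Prdx2 and 0.059 for Ncf1. Quantile normalization gave -0.0029 for Gpx4, -0.21 for Cyba and 0.016 for Ncf1, and equal totals gave -0.00027 for Cyba. With 1 library left out, the value ran from -0.13 to 0.0012 for Prdx2, from -0.011 to 0.14 for Cyba and from -0.037 to 0.014 for Ncf1. In OGD + A-485 against OGD, quantile normalization gave -0.019 for Hmox1, -0.046 for Prdx1, -0.098 for Prdx3 and -0.058 for Cat, equal totals gave -0.029 for Prdx3 and -0.0084 for Cat, and removing neighbours gave -0.041 for Hmox1, -0.0072 for Slc7a11 and -0.15 for Cat. In OGD + A-485 against control, removing neighbours gave 0.13 for Srxn1, 0.0040 for Abcc1 and 0.024 for Prdx3. Quantile normalization gave -0.29 for Gpx1 (limma adjusted p = 0.000134) and -0.091 for Gsto1. Equal totals gave -0.056 for Gsto1, and with 1 library left out Abcc1 ran from -0.042 to 0.0091. The cause was not tested.

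Calls lost were those of Keap1 in OGD with a pseudocount of 1, of Aifm2 in OGD with a pseudocount of 1 (0.498), equal totals (0.47), neighbours removed (0.49) or without OGD replicate 3 (0.498), of Gclc against control with neighbours removed (-0.11) and of Gstm1 against control with quantile normalization (0.43), equal totals (0.46) or neighbours removed (0.44). Other calls were gained. In OGD against control, Sod2 was called lower with equal totals or neighbours removed (-0.54), and Prdx1 and Gpx1 with quantile normalization. In OGD + A-485 against OGD, Slc7a11 was called higher without OGD replicate 2 (0.505). Gpx1 and Gsto1 were called higher there in some fits with 1 library left out. The replicate numbers in the labels did not pair the libraries: the correlation of deviations ran from -0.046 to 0.039 for the 9 pairs with the same number. With the replicate number as a block, 4 members were higher and 6 lower in OGD against control, 11 and 0 in OGD + A-485 against OGD, and 13 and 4 in OGD + A-485 against control. Of all 16123 genes, 1740 and 1548, 1937 and 2109, and 2691 and 2626 were called in the same order. Depth limits what can be said of Nqo1 and Mgst1.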
